A study of Mus musculus with 2 samples.

Results

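Foxp2 ChIP peaks at 8 mouse genes of epithelial-mesenchymal transition, integrin adhesion or matrix contact are described here. The genes were Twist2, Axl, Fstl1, Lgals1, Tnc, Itgb5, Itgb6 and Tns4, and they held 11 of the 944 peaks. They were chosen by the positions of the same peaks and with their fold values known, as genes of these roles with a summit (the position of highest pileup in a peak) inside the gene or within 50 kb of it. That each has a peak is therefore a description of how they were picked, and their peaks are given without a test. The data came from C1.1, a murine tubular epithelial cell line of the kidney, in which a CRISPR activation plasmid was used to raise Foxp2 from its own locus and cells carrying it were selected. The 1 ChIP library and the 1 input library, which is DNA taken before the pull-down, were both made from these activated cells. Cells with unraised Foxp2, a control antibody and a replicate of the ChIP were not analysed here, so the values show where Foxp2 signal lay in 1 library and not whether Foxp2 levels changed it. The files hold no expression values, so neither the cell type nor the activity of any gene was checked.

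In epithelial-mesenchymal transition, epithelial cells loosen their junctions and take on a migratory form with stronger attachment to the matrix. Transcription factors of the Twist, Snail and Zeb families are known to drive it, and integrins, heterodimers of an alpha and a beta chain, link the matrix outside the cell to the actin skeleton inside it through adaptor proteins such as tensins. In kidney tubules, features of this transition are known from injury and fibrosis. Foxp2 is a forkhead transcription factor and is known mainly as a repressor.

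The peaks at these genes ran from weak to strong, without reaching the largest folds among the 944. Fold, the enrichment of ChIP reads piled up at the summit over the local input background as the authors deposited it, ran from 3.42 at the weakest of the 3 peaks in Itgb5 to 18.2 in Tns4, and over all peaks it ran from 2.84 to 38.8. The median of the 11 was 5.13, and the median of all 944 peaks was 5.13. Of the 11, 2 had a fold of 10 or more, against 9.43% of all peaks. The ChIP pileup at the 11 summits lay between 13 and 78 reads, and the depth of the libraries is unknown. Intervals after a fold are exact 95% Poisson intervals of its pileup and cover counting error only.

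**Figure D1:**
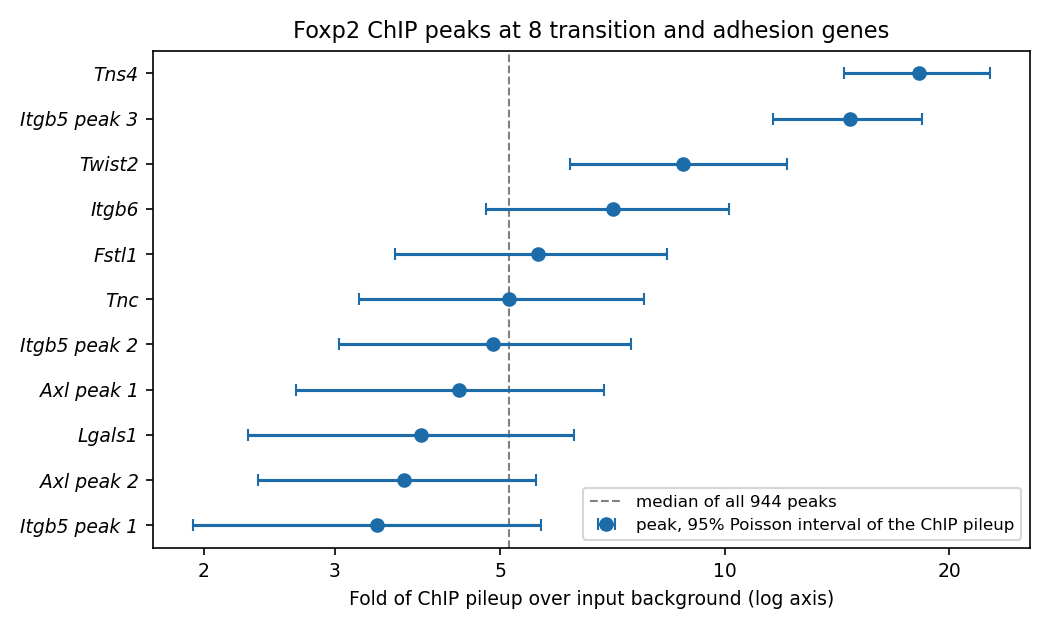
Fold of each of the 11 peaks (points; log axis) with the 95% Poisson interval of its ChIP pileup (bars), ordered by fold, and the median of all 944 peaks (dashed line). Tns4 at 18.2 and the strongest Itgb5 peak at 14.7 stand to the right, and the intervals of the 8 lowest peaks all include the median fold of 5.13.

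Twist2, a basic helix-loop-helix transcription factor of mesenchymal cells, had 1 peak of well above median strength. It lay inside the gene at chr1:91816510-91816946, 15389 bp downstream of the annotated start, in the gene of 46.6 kb at chr1:91801461-91848034. Its fold was 8.79 (6.20 to 12.1) from 35 reads over an input background of 3.09 scaled reads, which placed it 130th of the 944 peaks. The summit lay at the same time inside the noncoding gene Gm46117, 1423 bp from that gene's boundary, so the peak belongs to the span of both. No other coding gene was near, the closest being the histone deacetylase gene Hdac4 at 111929 bp, and the next summit on the chromosome was 2796837 bp away.

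Axl, a receptor tyrosine kinase of the TAM family that binds the ligand Gas6, had a close pair of weak peaks. Both lay inside the gene (chr7:25756500-25788924, on the minus strand), at chr7:25781765-25781994 and chr7:25782228-25782497. Their summits were 403 bp apart, 6838 and 6435 bp downstream of the annotated start. The peak farther from the start had a fold of 4.40 (2.66 to 6.89) from 17 reads over a background of 3.09. The other had more reads, 21, and a lower fold of 3.72 (2.36 to 5.59), over a higher input background of 4.92. The intervals of the pair overlapped widely, so neither peak was resolved as the stronger. Another summit within 500 bp, a distance chosen after the Axl pair was seen, was found for 0.636% of all peaks (6 of 944, the Axl pair among them). The nearest other gene was the pseudogene Gm29763, 9849 bp from the closer summit, and the nearest other coding gene was Cyp2s1 at 20171 bp.

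The promoter window of Axl (chr7:25788684-25788983, minus strand) held the forkhead core TGTTTAC, with its first base 229 bases before the annotated start. This motif occurs on either strand in 3.65% of the 32851 promoter windows of the RefSeq table. The window is printed 5′ to 3′ with the motif in capitals, since of the windows matched to the 8 genes it was the one that held this core. Neither Axl peak reaches it, and a match of letters is no sign of binding.

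Axl: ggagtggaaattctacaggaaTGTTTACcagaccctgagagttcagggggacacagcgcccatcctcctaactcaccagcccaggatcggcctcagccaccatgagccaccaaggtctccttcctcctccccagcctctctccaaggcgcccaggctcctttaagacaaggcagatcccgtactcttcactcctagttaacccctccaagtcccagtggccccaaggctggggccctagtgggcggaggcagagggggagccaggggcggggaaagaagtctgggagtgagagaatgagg

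Fstl1 encodes a secreted glycoprotein related to follistatin and SPARC, and its peak was the closest to the start of its own gene among the 6 genes whose starts the promoter table gives. At chr16:37777949-37778471 it was 523 bp wide, 59th by width among the 944 peaks, and its summit lay 1179 bp downstream of the start of the gene (chr16:37777055-37836516). The fold was 5.62 (3.61 to 8.38) from 22 reads over a background of 3.09, near the middle of all peaks, of which 56.7% had a lower fold. The nearest other gene was the noncoding Gm41452, 46115 bp away, and the next summit lay 405307 bp away. The promoter window of Fstl1 (chr16:37776805-37777104, plus strand, 5′ to 3′) is given for the gene whose peak came closest to its own start. It ends 845 bp before the peak begins, has 66.67% G and C against a median of 52.67% over all windows, and holds none of the 4 motifs searched, so no base is in capitals.

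Fstl1: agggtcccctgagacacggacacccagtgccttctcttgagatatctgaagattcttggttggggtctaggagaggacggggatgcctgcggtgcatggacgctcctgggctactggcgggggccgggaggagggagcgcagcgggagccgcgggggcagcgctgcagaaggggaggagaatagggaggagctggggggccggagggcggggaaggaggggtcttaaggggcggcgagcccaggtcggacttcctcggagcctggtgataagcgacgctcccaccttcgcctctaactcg

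Lgals1 encodes galectin-1, a lectin that binds beta-galactosides on cell surfaces and in the matrix, and it was the only one of the 8 whose peak lay outside the gene. The gene is short (3.74 kb, chr15:78926725-78930465), and the peak at chr15:78934954-78935184 had its summit 4592 bp from it. A nearer gene held this summit. It lay inside Nol12, which encodes a nucleolar protein, 124 bp downstream of the annotated start of Nol12 (chr15:78934933-78941910), so by position the peak belongs to Nol12 before Lgals1. The fold was 3.91 (2.29 to 6.29) from 15 reads over a background of 3.09, and 13.98% of all peaks had a lower fold. Of the 11 peaks this was the one that overlapped a promoter window of the RefSeq table (GRCm38.p6, 250 bases before to 50 bases after an annotated start), which 7.10% of all peaks did. The window of Nol12 (chr15:78934683-78934982, plus strand, 5′ to 3′) is shown since it holds the only stretch of any of the 11 peaks whose bases could be read here. The 29 bases in capitals are those inside the peak, the other bases of the peak lying farther downstream.

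Nol12: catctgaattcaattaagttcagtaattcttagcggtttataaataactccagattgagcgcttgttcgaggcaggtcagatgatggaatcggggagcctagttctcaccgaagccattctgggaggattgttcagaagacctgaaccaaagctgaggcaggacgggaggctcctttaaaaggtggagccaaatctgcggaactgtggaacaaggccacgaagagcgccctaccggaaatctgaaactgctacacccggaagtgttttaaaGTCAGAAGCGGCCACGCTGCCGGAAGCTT

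Tnc encodes tenascin-C, a large matrix glycoprotein that modulates cell attachment, and it had 1 peak inside the gene (chr4:63959785-64047015, minus strand). The peak at chr4:64023850-64024058 was narrow, at 209 bp, and its summit lay 22993 bp downstream of the nearer of the gene's 2 annotated starts. Its fold was 5.13 (3.23 to 7.79) from 20 reads over a background of 3.09, at the median of all peaks. The summit also lay inside the noncoding gene 8030451A03Rik, which overlaps Tnc, and 39212 bp from that gene's boundary. The nearest coding gene after Tnc was Tnfsf8 at 162435 bp.

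Itgb5, the integrin beta chain that pairs with the alpha v chain in a receptor for vitronectin, had 3 peaks and was the only one of the 8 genes in a run of summits. All 3 lay inside the gene (chr16:33829665-33949338, 119.7 kb), 48607, 59528 and 62653 bp downstream of its start, and their summits spanned 14046 bp in the middle of the gene body. The strongest was the farthest from the start, at chr16:33891883-33892911, with a fold of 14.7 (11.6 to 18.4) from 75 reads over a background of 4.16. At 1029 bp it was second by width among the 944 peaks and 16th by fold. The peak at chr16:33889122-33889308, 3125 bp before it, had a fold of 4.88 (3.04 to 7.49) from 19 reads. The peak at chr16:33878080-33878294 had a fold of 3.42 (1.93 to 5.67) from 13 reads, the lowest pileup in the list, and its −log10 q of 1.52 was close to the lowest called, 1.37.

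The Itgb5 run thus consisted of 1 strong and 2 weak peaks. Of all peaks, 4.98% belonged to such a run, defined as at least 3 summits in 50 kb. Counted by gene, 3 or more summits lay inside 0.0416% of protein-coding genes, which were 9 of 21631. Itgb5 was the shortest of these 9, the others being Trpm6, Arid5b, Crybg1, Glis3, Slc4a4, Gmds, Rad51b and Dlgap1 with lengths from 162.3 to 852.3 kb. No gene lay nearer to any of the 3 summits than Itgb5 itself. The closest neighbours of the peak nearest the start were the pseudogene Gm34967 at 53363 bp and the mucin gene Muc13 at 58343 bp, and that of the strongest peak was the pyrimidine synthesis gene Umps at 62464 bp. The nearest summit outside the limit of 50 kb was 90562 bp from Itgb5, inside Heg1, with a fold of 4.88.

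Itgb6, the beta chain that pairs with alpha v in epithelia and is known to activate latent TGF-beta, had 1 peak, well inside the gene (chr2:60598292-60722603, minus strand). The gene is of nearly the same length as Itgb5, at 124.3 kb, but held 1 summit in place of 3. The peak at chr2:60632950-60633304 was 355 bp wide with a fold of 7.08 (4.79 to 10.1) from 28 reads over a background of 3.09, and 74.6% of all peaks had a lower fold. Its summit lay 40651 bp downstream of the nearer of 2 annotated starts and 34750 bp from the far end of the gene. The nearest other coding gene, Pla2r1, was 79716 bp away, and the next summit was 2079522 bp away.

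Tns4 encodes a short tensin, known to bind integrin beta tails while lacking the actin-binding part of its relatives, and it had the strongest peak of the 8 genes. The peak at chr11:99076470-99077097 lay in the middle of the gene (chr11:99065678-99089306), 11058 bp from its lower and 12570 bp from its upper boundary. Its fold was 18.2 (14.5 to 22.7) from 78 reads over a background of 3.34, with rank 6 among the 944 peaks by fold and rank 10 by pileup. The interval lay above those of 9 of the other 10 peaks and overlapped that of the strongest Itgb5 peak. The nearest other gene was Igfbp4, which encodes a binding protein of insulin-like growth factors, 24081 bp from the summit, followed by the topoisomerase gene Top2a at 52537 bp. A second summit within 50 kb was not found, the next lying 266655 bp from this one.

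**Figure D2:**
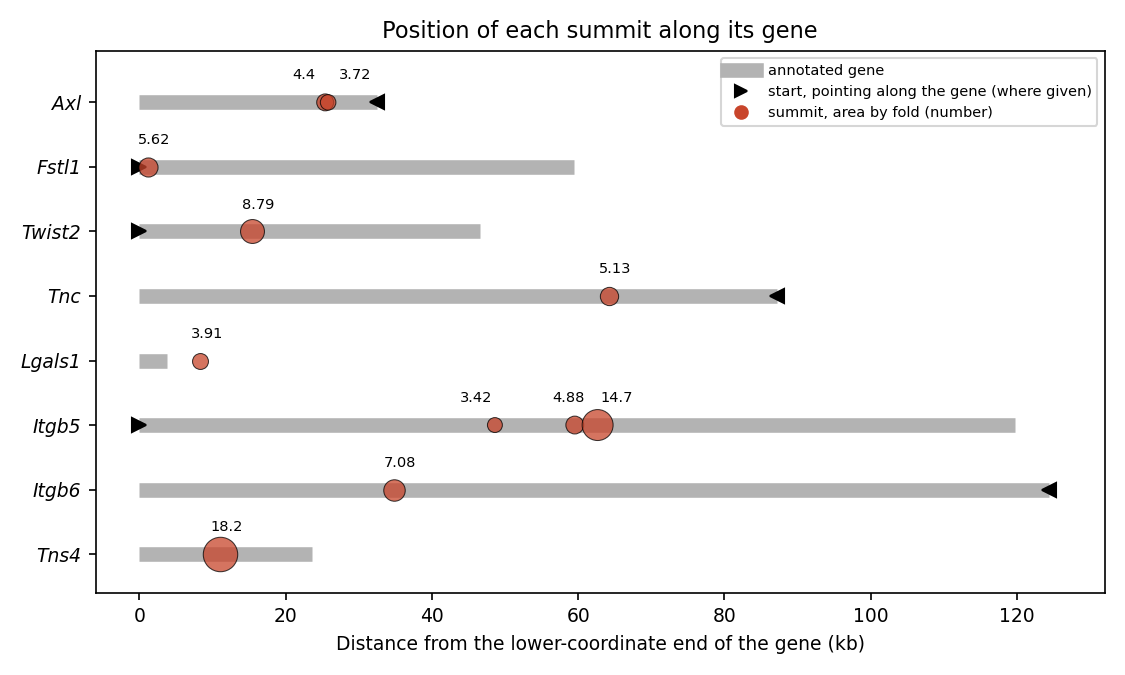
Each summit (circles, area proportional to fold, fold printed above) along its annotated gene (grey bars), in kb from the end of the gene with the lower coordinate; black triangles stand at the end where the gene begins and point along it, where the strand was given. The 3 Itgb5 summits lie in the middle of a gene of 119.7 kb, the Fstl1 summit lies 1179 bp from the start, and the Lgals1 summit lies outside the gene.

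Most of these peaks were intragenic and far from an annotated start. A summit inside the gene was found for 7 of the 8 genes, against 1.63% of all protein-coding genes. Since the genes were picked for having a peak, nothing is read from that difference. By peak, 10 of the 11 had a summit inside the gene. The share of all peaks that lay inside a gene or far from a start is not given here. Whether these positions set the 11 peaks apart from other peaks was therefore not tested. For the 6 genes with a promoter window in the table (all but Lgals1 and Tns4), the 9 summits lay 1179 to 62653 bp downstream of the nearest annotated start, and none of the 9 peaks overlapped a window of its own gene. Whether a summit lay in an exon or an intron was not analysed here.

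The limit of 50 kb in the choice of peaks had little bearing on which peaks were described. The farthest summit that it admitted was that of Lgals1 at 4592 bp, and the nearest that it left out was the one at 90562 bp from Itgb5. The next summits beyond the limit were 187310 bp from Tnc, with a fold of 12.9 inside the noncoding gene Gm31115, and 255597 bp from Tns4, with a fold of 3.28. For Axl and Fstl1 the distances were 326229 and 404128 bp. For Lgals1, Itgb6 and Twist2 it was 1020416 bp or more.

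Gene length moved with the share of genes that held a summit. A summit inside the gene was found for 0.343% of the 11655 protein-coding genes under 20 kb, 1.27% of those from 20 to 50 kb, 3.35% of those from 50 to 130 kb and 8.14% of longer ones. Of the 8 genes, 7 were over 20 kb, and Itgb6 at 124.3 kb was longer than 91.5% of protein-coding genes. Its part in the positions described was not tested.

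The input background was low at most of these summits. It lay at the floor of 3.09 scaled reads at 8 of the 11 summits, against 43.2% of all peaks. The 3 exceptions were the Axl peak nearer the start (4.92), the strongest Itgb5 peak (4.16) and Tns4 (3.34), so that the strongest peaks of the list were not at the floor. No background reached 5 scaled reads in the list, while the largest among all peaks was 23.9. The share of peaks at the floor differed widely between chromosomes, from 10.6% on chromosome 17 to 85.7% on chromosome 4, which holds Tnc. It was 57.4%, 78.1% and 60.9% on chromosomes 1, 7 and 16, and 38.2%, 22.2% and 27.6% on chromosomes 2, 11 and 15. The part of chromosome in the low background of the list was not tested.

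**Figure D3:**
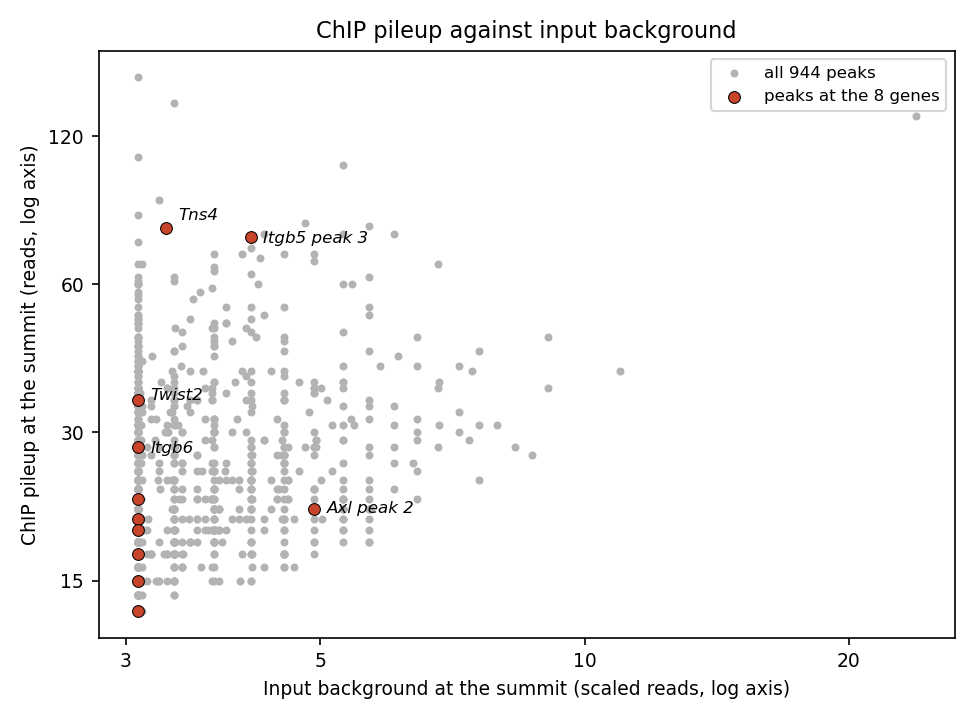
ChIP pileup in reads against input background in scaled reads at the summits of all 944 peaks (grey) and of the 11 peaks (red), both axes logarithmic. Of the red points 8 stand at the floor of 3.09, with pileups from 13 to 35, and Tns4 (78 reads) and the strongest Itgb5 peak (75 reads) lie far above the others.

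The promoter windows of the 8 genes had few matches to the 4 motifs searched on both strands. Of the 6 genes with a window, Axl held TGTTTAC and Twist2 held AATTTG, a motif that 10.96% of all windows hold. TATTTAT (5.598% of all windows) and TATTTGT (3.629%) were found in none of them, and the window of Nol12 held TATTTAT on the opposite strand, 211 bases before the start. The Twist2 window (chr1:91801211-91801510, plus strand, 5′ to 3′) is given with its match in capitals, which begins 90 bases before the start, for the transcription factor gene among the 8. The peak in Twist2 lies 15000 bp downstream of this window.

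Twist2: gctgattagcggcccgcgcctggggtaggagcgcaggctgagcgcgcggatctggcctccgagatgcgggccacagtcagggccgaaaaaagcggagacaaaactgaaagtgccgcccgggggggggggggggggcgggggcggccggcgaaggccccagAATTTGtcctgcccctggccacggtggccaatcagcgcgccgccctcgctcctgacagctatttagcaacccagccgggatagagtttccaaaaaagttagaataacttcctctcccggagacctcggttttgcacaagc

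Related genes were counted from 9 lists of families and complexes of transition, adhesion and matrix genes, with 182 genes found in the annotation. Each of the 8 genes is in 1 of 7 of these lists, and the mesenchymal effector and epithelial adhesion lists hold none of them. The lists were compiled with earlier results on these peaks known, and the counts are descriptions. A gene said to have no summit had none among the 944 peaks analysed. Leaving out the 8 genes, 22 of 174 (12.6%) had a summit inside the gene or within 50 kb, against 6.13% of all protein-coding genes and 5.34% of all annotated genes. Of the same 174 genes, 10 had a summit inside the gene or within 10 kb, against 2.71% of all protein-coding genes. These 10 were among the 22, and of all protein-coding genes 586 of the 1326 with a summit within 50 kb had one within 10 kb, a similar share. The 22 genes shared 22 peaks, with folds from 3.21 to 14.5 and a median of 4.73, and for 8 of them no gene lay nearer to the summit. List genes had a median length of 35.7 kb, and the part of length in these counts was not tested.

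Among 26 integrin subunits, 4 had a summit within 50 kb, and Itga2 and Itgb4 were the genes beside Itgb5 and Itgb6. Without Itgb5 and Itgb6, 2 of 24 were counted (8.33%), near the 6.13% of all protein-coding genes. Itga2, the alpha chain of a collagen receptor, had a summit inside the gene with a fold of 3.66 (2.11 to 5.98) from 14 reads. Itgb4, the beta chain of hemidesmosomes, had one 9795 bp outside the gene with a fold of 3.21 (1.97 to 4.97), which lay inside Sap30bp. Both were weak peaks, with folds below those of the single Itgb6 peak and of the 2 stronger Itgb5 peaks. Their intervals overlapped those of Itgb6 (4.79 to 10.1) and of the Itgb5 peak at 4.88 (3.04 to 7.49), so that order was not resolved. The fold at Itga2 was above that of the weakest Itgb5 peak (3.42). The fibronectin and vitronectin receptor chains Itga5, Itgav and Itgb3 and the common chain Itgb1 had no summit within 50 kb.

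Focal adhesion proteins, which join integrin tails to actin, had the highest share of the 9 lists, with 9 of 30 counted. Without Tns4 it was 8 of 29 (27.6%), against 6.13% of all protein-coding genes and 7.42% of those from 50 to 130 kb. The median length of the list was 55.98 kb, and the part of length in this count was not tested. A summit inside the gene or within 10 kb was found for 5 of the 30, Tns4 among them, against 2.71% of all protein-coding genes. Besides Tns4, summits lay inside the kinase gene Src (4.82, 2.999 to 7.40), the adaptor gene Lims1 (4.15, 2.48 to 6.59) and the scaffold gene Nedd9 (3.66, 2.11 to 5.98). Bcar1, which encodes the scaffold p130Cas, had a fold of 8.09 (5.84 to 10.9) at 3920 bp, where the noncoding gene Gm51589 held the summit. Of those at 10 to 50 kb, the largest fold was at Pxn, which encodes paxillin (8.30, 17475 bp away, with the summit inside Gcn1). Next was the kindlin gene Fermt1 (7.77, 47166 bp away), and Gm25704 lay nearer to that summit, at 15301 bp. The other tensins Tns1, Tns2 and Tns3 had no summit within 50 kb, so the peak in Tns4 was the only one at a tensin gene.

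Transcription factors of the transition gave 2 of 19, and without Twist2 1 of 18 (5.56%), near the 6.13% of all protein-coding genes. Besides Twist2, Tcf3, which encodes the E proteins that pair with Twist factors, had a summit inside the gene with a fold of 6.58 (4.45 to 9.41) from 28 reads. The other drivers Snai1, Snai2, Zeb1, Zeb2 and Twist1 had none within 50 kb. Mesenchymal effector genes gave 2 of 26, a share of 7.69% that is near the 6.13% of all protein-coding genes. S100a4, a calcium-binding protein gene of motile cells, had a fold of 6.59 (4.39 to 9.55) at 28409 bp, where the summit lay inside S100a3. Vim, Cdh2, Acta2 and Fap had none.

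In the families of Axl, Fstl1 and Lgals1 no further gene was counted. Tyro3, Mertk and the ligands Gas6 and Pros1 had no summit within 50 kb (1 of 7 with Axl), nor had Sparc, Fst and Fstl3 (1 of 13 with Fstl1) or the other galectins (1 of 8 with Lgals1).

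Tenascins and matrix glycoproteins gave 5 of 25, and without Tnc 4 of 24 (16.7%), against 6.13% of all protein-coding genes. Tnxb, which encodes tenascin-X, had a summit 5165 bp away with a fold of 12.7 (9.52 to 16.6), larger than that in Tnc, but Atf6b lay nearer to it at 214 bp. A further summit 35383 bp from Tnxb had a fold of 10.5 (7.63 to 13.996) and lay inside Ppt2. Thbs2, a thrombospondin gene (5.43, 24716 bp away), and Emilin1, an elastic fibre gene (4.53, 24809 bp away), had the largest folds among the genes whose summits all lay at 10 to 50 kb, and both had nearer genes. Fn1, Vtn and Thbs1 had no summit within 50 kb.

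Epithelial adhesion genes, which the transition is known to lower, gave 5 of 30 (16.7%), against 6.13% of all protein-coding genes. None of the 5 held a summit inside the gene. The largest fold belonged to 1 peak shared by the neighbouring cadherin genes Cdh1, which encodes E-cadherin, and Cdh3. It had a fold of 14.5 (11.5 to 18.1) from 76 reads, close to the strongest Itgb5 peak, and lay 14283 bp from Cdh1 and 32156 bp from Cdh3, inside the nearer gene 1110028F18Rik. Cldn3, a tight junction claudin, had a fold of 4.54 (2.82 to 6.96) at 4705 bp and was the nearest gene. Cldn4 was counted through the same peak, which lay 34575 bp from it. The alpha catenin gene Ctnna1 had summits at 11764 bp, with a fold of 7.94, and at 11287 bp, with a fold of 4.64. Gm46617 lay nearer to both Ctnna1 summits.

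**Figure D4:**
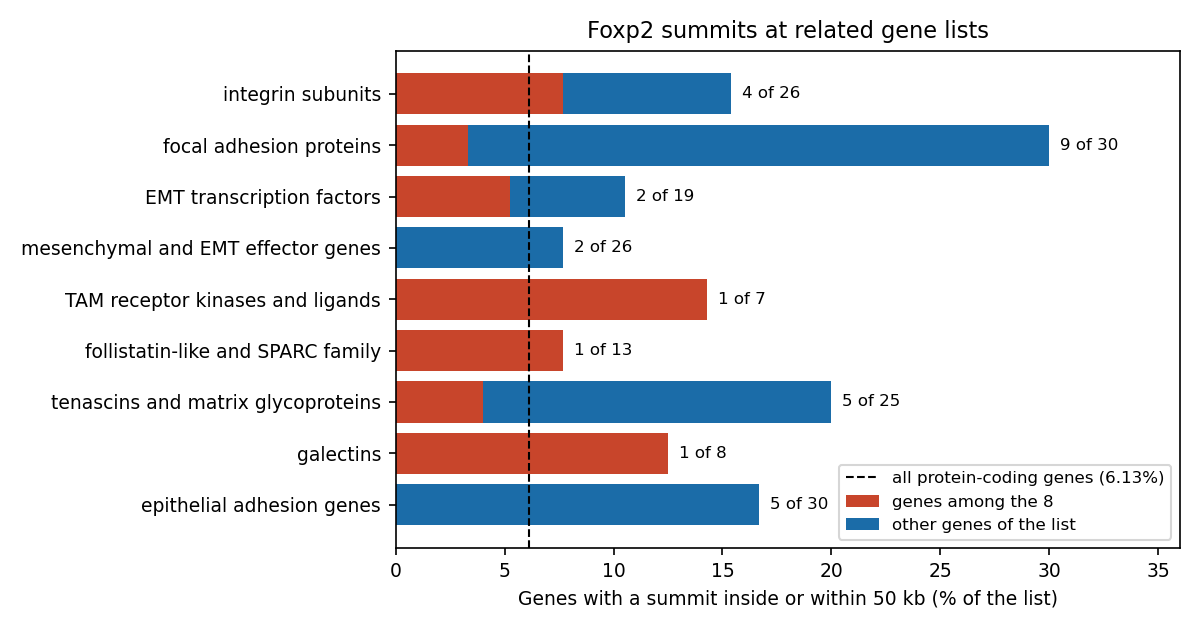
Share of each of the 9 lists with a summit inside the gene or within 50 kb (bars; the 8 genes in red, other genes in blue, with counts), and the share of all protein-coding genes, 6.13% (dashed line). Focal adhesion proteins reached 9 of 30, and the red parts are fixed by how the 8 genes were chosen.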

How the data were processed

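The data were the peaks of 1 Foxp2 ChIP library called against 1 input library from the same activated C1.1 cells, which had been cross-linked with 1% formaldehyde, per the labels. MACS2 and bcl2fastq with mm10 as the build are named, per the submitters' processing notes; the sources used here name no aligner, read filter or version. The deposited fold is a ratio of ChIP pileup over local input background at each summit, and −log10 p and −log10 q stand as the authors deposited them. The deposited score equalled 10 times −log10 q cut to a whole number, with a ceiling, in 100% of peaks and was not used. Peak numbers ran to 983 and 944 peaks were present. The other 39, the 8 lowest among them, were not analysed here, so ranks hold within the 944.

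The pileup and background of each peak were recovered from fold, taken as (pileup + 1) / (background + 1), and the Poisson −log10 p. The recomputed −log10 p differed by at most 2.05e-05. The method was also run on 300 simulated peaks, of which 300 were recovered. These were made with the same formula and a narrower range of backgrounds, so their recovery checks the arithmetic and not the formula. Genes came from the RefSeq table of GRCm38.p6 (the assembly mm10 stands for), 49554 of them on chromosomes that hold peaks, and promoter sequences from RefSeq (GRCm38.p6), in which 6 of the 8 genes were matched. Distances run from summit to gene, and 0 means inside. Coordinates are 1-based.

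The 8 genes, the 9 lists and the motifs were chosen with earlier results of these data known. Named were the 8 genes with every peak and every nearer gene, in each list the genes with a summit inside or within 10 kb, and of those at 10 to 50 kb the 2 with the largest fold. Others were named after their values were seen, as were genes without a summit. 1 counted list gene is not reported here by name. No test was run. Alternatives were peaks with −log10 q of at least 5, peaks at or above the median fold, distances of 10 and 100 kb, runs within 10 and 100 kb, and other gene sets. Python 3.11.15, pandas 2.3.3 and scipy 1.17.1 were used.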

Additional observations from a re-analysis of the deposited data

How the results depend on the processing

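At the 8 genes, limits on strength changed the number of peaks more than limits on distance did. With −log10 q of at least 5, 7 of the 11 peaks and 6 of the 8 genes remained, Axl and Lgals1 dropping out, and among peaks no weaker than the median fold 5 peaks (5 genes, each the nearest to its peak) remained, Tnc dropping out too. The number of genes in a run of peaks fell from 1 to 0 under both limits, which leave out the weakest Itgb5 peak (fold 3.42, −log10 q 1.52), and with runs within 10 kb, since the Itgb5 summits span 14046 bp. A distance of 10 kb gave the same 11 peaks and 100 kb gave 12. Over all 9 lists the count of 30 genes fell to 18 with −log10 q of at least 5, to 15 at or above the median fold and to 18 within 10 kb. In that order of settings the count of focal adhesion proteins was 5, 4 and 5 (from 9), of epithelial adhesion genes 3, 3 and 1 (from 5) and of mesenchymal effector genes 1, 1 and 1 (from 2). Matrix glycoproteins fell from 5 to 2 at or above the median fold and to 2 within 10 kb. Integrin subunits fell from 4 to 2 under both limits on strength, and the TAM and galectin lists from 1 to 0. Within 100 kb the galectins and the follistatin-like list rose from 1 to 2. The other 29 values under alternatives stayed within 1.5 times the main one. Counting noise limits the weaker peaks, of which 8 of 11 had intervals that include the median fold. No paired analysis was possible because each group has 1 library.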

Other observations

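Other adhesion and matrix families, picked after the results above were known and defined by gene symbol, are given beside the 6.13% of all protein-coding genes that had a summit inside or within 50 kb. Laminin chains had 1 of 11, with a summit inside Lama2, the laminin chain of muscle and nerve basement membranes, at a fold of 9.53 (6.81 to 12.98). Semaphorins and plexins, guidance ligands and their receptors, had 4 of 29. Among them Sema3a held a summit with a fold of 6.95 (4.70 to 9.93), and Sema3e had 3 summits, 2 inside the gene and the strongest, at 10.4 (7.78 to 13.7), 32283 bp outside it. Ephrins and Eph receptors had 2 of 22, both with a summit inside the gene, Efna5 at 4.84 (3.11 to 7.22) and Epha4 at 3.66 (2.11 to 5.98). Collagen chains had 4 of 44, and the only one with a summit inside the gene was Col8a1, at 8.06 (5.59 to 11.3). Col4a4, a chain of the glomerular basement membrane, was counted at 8.39 (5.95 to 11.5), 19216 bp from a summit that lay inside Rhbdd1. Cadherins and claudins each had 3 of 23, and both counts overlap the epithelial adhesion list. The cadherins were Cdh13 with Cdh1 and Cdh3, already counted there through 1 shared peak. The claudins were Cldn14 with Cldn3 and Cldn4, also counted there through 1 shared peak. ADAM and ADAMTS proteases had 4 of 58 and myosin chains 2 of 21. The 23 matrix metalloproteinase genes, the 69 protocadherin genes and the 10 syndecan and glypican genes had none within 50 kb.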
